A study of Mus musculus with 4 samples.

Results

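The 57 genes described here encode the Wnt ligands of the mouse, their receptors, the secreted proteins that block or enhance them, the cytoplasmic relay with its TCF/LEF transcription factors, and genes that report the output of the pathway. They were taken from a fixed list of symbols, matched to array probes through the probes' accessions. The genes were chosen by pathway role, but in view of the measured KO minus WT differences of these same arrays, so the differences below describe the members and the list as a whole was given no test. Of the 57 genes, 55 had a matched probe, on 79 probes in all. Lrp5 and Lrp6, which encode the co-receptors of the canonical pathway, were not analysed here. A total of 53 genes were bright enough to be tested, of 21639 genes and transcripts tested in all, and 44 of the 53 were well above background on all 4 arrays. Because a gene could also pass by being bright in only 1 group, the 53 are not a neutral sample of the list.

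RNA from 4 lines of mouse embryonic stem cells (ESCs, the self-renewing cells of the early embryo in culture) was measured on 1-colour Agilent whole-genome arrays, 1 array per line, to compare cells with and without Dppa2. Dppa2, also called ECAT15-2, encodes a nuclear protein of pluripotent cells, and Dppa4 (ECAT15-1) is its paralogue. The 2 knockout lines (KO 1 and KO 2) had the genotype 15-1CT/CT, 15-2-/-: they lacked Dppa2, and both of their Dppa4 copies were the conditional targeted (CT) allele. The 2 wild-type lines (WT 1 and WT 2) were 15-1+/+, 15-2+/+, so every comparison is between these compound genotypes. All lines were derived from blastocysts of a cross between double heterozygotes, KO 1 and WT 1 from mother 1046 and KO 2 and WT 2 from mother 875. Each line was a single derivation on a mixed background of 129Sv and C57/BL6, crossed as well to Cre or FLPe transgenic mice whose background the labels call unknown. Cells of both genotypes spent 3 days on gelatin-coated dishes in medium with LIF (leukaemia inhibitory factor, a cytokine that keeps ESCs undifferentiated) and 15% fetal calf serum.

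Wnt proteins are secreted, lipid-modified signals. In the canonical branch, a Wnt bound to a Frizzled receptor and an Lrp co-receptor stops the complex of Axin, Apc and Gsk3b from marking beta-catenin for destruction, so that beta-catenin (Ctnnb1) enters the nucleus and works with TCF/LEF factors on target genes, among them genes that dampen the pathway again. In mouse ESCs, canonical Wnt signalling supports self-renewal, chiefly by relieving repression by Tcf7l1, while in the embryo the same branch is needed to form the primitive streak and mesoderm.

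The share of the 41174 probes called well above background ranged between 68.4% and 70.3% per array (28151 to 28931 probes), without saturated spots. Values are log2 of the processed signal, scaled to each array's 75th percentile, and differences are KO minus WT on that scale. Levels of different probes were not set against each other. The pair of KO arrays correlated at 0.983 across genes and the pair of WT arrays at 0.989, against 0.955 to 0.970 between genotypes, where genes are not independent replicates. Dppa2 itself was at 7.05 and 7.12 in KO lines, against 12.09 and 12.03 in WT lines, a log2 difference of -4.97 with an SE of 0.12 and 2 lines a group (limma adjusted p = 0.00890, but 0.0790 with the mother as a block). Dppa4 was at 13.95 and 14.07 in KO lines, against 13.37 and 13.54 in WT lines (difference 0.55, limma adjusted p = 0.154). With 2 lines a group the number of arrays limits the precision. The limma SE and p-values combine the spread between these lines with a spread pooled over all genes. For genes whose lines lie close together, they do not measure the spread of those lines alone. In a bulk measurement, fewer cells of a type and less RNA per cell cannot be told apart.

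The ligands were the members that differed most between the genotypes. Among the 53 tested members, 3 fell in KO lines (Wnt6, Wnt2 and Wnt10a), 1 rose (Wnt3a) and 49 did not pass the adjusted threshold of 0.05 (limma, Benjamini-Hochberg over all 21639). The same threshold was passed by 1.67% of all genes tested in the lower direction and by 0.176% in the higher direction (1.84% in either). An unadjusted limma p under 0.05 was reached by 24 of the 53 members, and by 5099 of all 21639 genes tested. In the pairs of both mothers, 18 members were at least 2-fold lower in the KO line and 3 (Wnt3a, Fzd5 and Sfrp1) at least 2-fold higher, against 6.94% and 1.56% of all genes. Both KO values lay below both WT values for 34 members (24.5% of all genes) and above them for 9 (37.7% of all genes), and the groups overlapped for 10. Since the list was chosen with such differences known, nothing is read from these shares. The median difference over the tested members was -0.79, and 0.10 over all genes.

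Role by role, the medians were -2.03 for 16 ligands, -0.68 for 10 receptors, -0.90 for 9 secreted inhibitors, 0.37 for the 3 genes of Wnt secretion and R-spondins, 0.03 for 7 cytoplasmic genes, -0.48 for 4 TCF/LEF factors and -1.13 for 4 feedback targets. The ligand median was -1.55 with the dimmest ligands set at the bound their background allows, and -1.08 or -0.91 after a different background correction (normexp with 75th-percentile or quantile scaling). The medians for receptors and secreted inhibitors leaned on KO 2: without it they were -0.42 and -0.46. The size of the difference was larger between KO 2 and WT 2 than between KO 1 and WT 1 for 35 of the 53 members. The same held for 13561 of all 21639 genes tested, so it is not particular to the members. The member medians were -1.17 and -0.40 in these pairs, and 0.09 and 0.10 over all genes. KO 2 was below KO 1 for 34 of the 53 members (64.2%), against 46.8% of all genes tested, whereas WT 2 was below WT 1 for 28 of them (52.8%), against 48.2% of all genes.

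**Figure D1:**
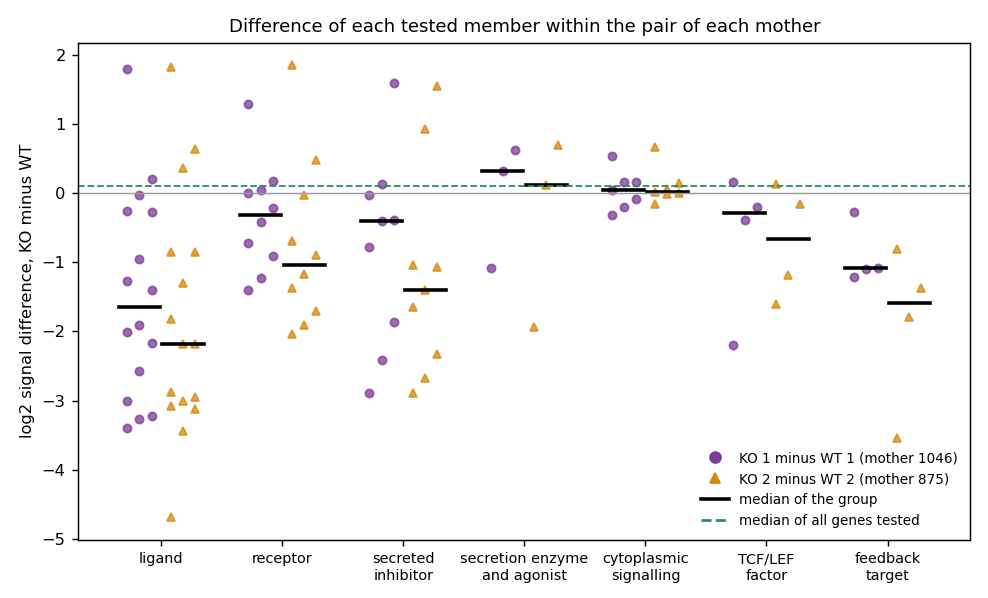
Log2 difference KO minus WT (y axis) of each tested member, by role along the x axis, shown separately for the pair from mother 1046 (KO 1 minus WT 1) and the pair from mother 875 (KO 2 minus WT 2); each point is 1 gene the bars are medians, and the dashed line is the median of all genes tested. The ligand medians are -1.65 and -2.18 in the pairs, and the cytoplasmic genes lie close to 0 in both, with medians of 0.05 and 0.01.

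Of 17 Wnt ligands, 16 were tested, and 12 of these were lower in both KO lines than in both WT lines, 2 were higher in both, and 2 overlapped. Over all genes tested, 24.5% were lower in both and 37.7% higher, and the list was chosen with the differences known. Wnt2b was not well above background on both arrays of any group and is given no fold. Wnt6, a ligand of epithelia and early mesoderm, was at 8.40 and 8.67 in KO lines, against 11.62 and 11.54 in WT lines. Both KO lines were far below both WT lines, an 8.24-fold fall (log2 difference -3.04, SE 0.16, n = 2 per group, limma adjusted p = 0.0197). Wnt10a, a ligand of tooth, hair and skin development that lies next to Wnt6 on chromosome 1, was at 8.23 and 7.91 in KO lines, against 10.80 and 11.03 in WT lines. It fell 7.19-fold, again without overlap (difference -2.85, SE 0.19, limma adjusted p = 0.0258). Wnt2, a ligand of lung and placental development, was at 2.83 and 3.18 in KO lines, not well above background in either, against 5.83 and 6.12 in WT lines. On the processed signal its fall was at least 6.47-fold, taking the lowest signal well above background on each KO array as the ceiling for the KO level (fitted difference -2.97, SE 0.21, limma adjusted p = 0.0271).

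Wnt3a went the other way. This ligand of the primitive streak and tail bud, which is often added to ESC cultures to activate canonical signalling, was at 7.82 and 7.87 in KO lines, against 6.03 and 6.04 in WT lines. Lines of 1 genotype differed by no more than a few hundredths, and the KO lines were 3.51-fold higher (difference 1.81, SE 0.12, n = 2 per group, limma adjusted p = 0.0265). These 4 calls were lost when the mother was added to the model as a block: the limma adjusted p was then 0.0831 for Wnt6, 0.0916 for Wnt10a, 0.0815 for Wnt2 and 0.0887 for Wnt3a, with the same differences. They also did not hold without KO 2, WT 1 or WT 2, where no member was called, or with probes required above background on all 4 arrays, where Wnt2 drops out and the adjusted p of the other 3 was 0.0503. Without KO 1, the 3 falls and the rise of Wnt3a were called, together with falls of Fzd6, Lgr5, Wnt3, Wnt10b and Wnt16. The call on Wnt2 was in addition lost under normexp background correction, where its difference shrank to -0.94 or -0.77, and under quantile scaling.

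The other ligands at least 2-fold lower in both pairs did not pass the adjusted threshold. Wnt10b, which restrains fat-cell formation, was at 3.03 and 1.95 in KO lines, not well above background in either, against 6.42 and 6.63 in WT lines, a gap of at least 9.48-fold (limma adjusted p = 0.0510). Wnt4, a ligand of kidney and female reproductive tract development, was at 8.40 and 8.15 in KO lines, against 10.41 and 11.16 in WT lines (difference -2.51, limma adjusted p = 0.0638). Wnt7a, known from limb dorsal patterning, was at 5.62 and 4.92 in KO lines, against 7.52 and 8.0 in WT lines (-2.49, adjusted p = 0.0707). In all 3 genes the genotypes were well separated. Wnt10b was called lower under quantile scaling, with probes averaged and with an intensity trend and robust prior (lowest adjusted p 0.0419), and Wnt4 under that trend and under normexp (lowest adjusted p 0.0371).

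Wnt16 was at 1.07 and 2.13 in KO lines, both not well above background, against 4.34 and 4.31 in WT lines, a gap of at least 2.06-fold (limma adjusted p = 0.0821). Under normexp, which adds an offset to every signal, the fitted differences of the dim ligands were smaller than these bounds, at -1.22 or -1.06 for Wnt10b and -0.45 or -0.27 for Wnt16, so "at least" refers to the processed signal. For Wnt3, the ligand required for gastrulation in the mouse, the values were 9.49 and 7.92 in KO lines, against 11.65 and 11.36 in WT lines (-2.80, SE 0.60, adjusted p = 0.123). KO 1 and KO 2 thus differed from each other by more than 1 log2 unit, and the second Wnt3 probe gave -3.19. Wnt5b had a similar spread, at 8.14 and 6.72 in KO lines, against 9.40 and 8.54 in WT lines (-1.54, adjusted p = 0.244).

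For the remaining ligands the differences were smaller or the lines overlapped. Wnt9a had -1.57, Wnt5a, a ligand of non-canonical signalling, had -1.13, and Wnt7b had -0.55, each with both KO values below both WT values. For Wnt5a, KO 2 was not well above background, and KO 1, at 3.90, was barely below WT 2, at 3.95. Wnt8a, a ligand of the primitive streak, was at 10.55 and 8.71 in KO lines, against 10.82 and 10.01 in WT lines, so that KO 1 lay between the WT lines. Wnt11, which acts in convergent extension, was at 6.77 and 6.59 in KO lines, against 6.57 and 6.24 in WT lines (0.28, adjusted p = 0.402). Wnt1 was near background in all lines, at 3.53 and 3.91 in KO lines, against 3.56 and 3.28 in WT lines, where it was not well above background.

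**Figure D2:**
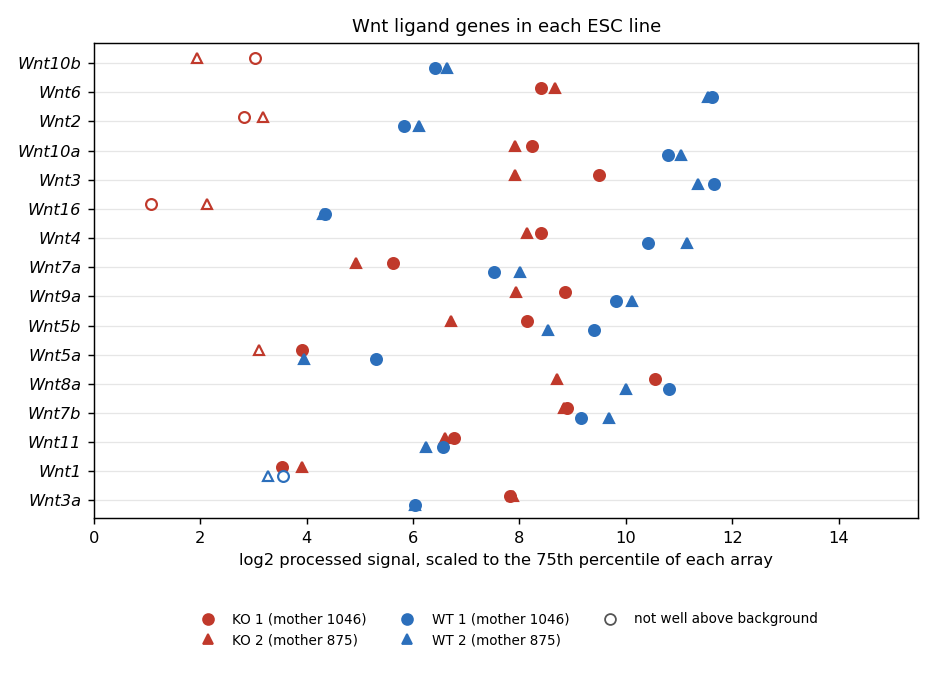
Log2 signal (x axis) of the tested Wnt ligands, 1 row per gene, in the KO lines (red) and the WT lines (blue); circles are the lines of mother 1046, triangles those of mother 875, and open points mark lines in which the probe was not well above background. Wnt6 lies at 8.40 and 8.67 in KO lines and at 11.62 and 11.54 in WT lines, and Wnt3a is the ligand whose KO points, at 7.82 and 7.87, lie clearly above its WT points, at 6.03 and 6.04.

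Several Wnt genes are neighbours in the genome, a feature the list did not use. In the RefSeq table, Wnt6 is next to Wnt10a on chromosome 1, and both fell (differences -3.04 and -2.85). On chromosome 15, Wnt10b is next to Wnt1, where Wnt10b was at least 9.48-fold lower in KO lines, and Wnt1, near background, overlapped between the genotypes. On chromosome 11, Wnt3 is next to Wnt9b, which was at 4.15 and 3.29 in KO lines, against 5.42 and 5.09 in WT lines (-1.53, limma adjusted p = 0.137, KO 2 not well above background), beside -2.80 for Wnt3. Also on chromosome 11, Wnt3a, which rose by 1.81, is next to Wnt9a, which had -1.57 (adjusted p = 0.142).

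Most markers of mesoderm and trophoblast were lower in KO lines along with the ligands. Markers of fibroblast or feeder cells leaned lower in KO lines, chiefly in the pair of mother 1046. Those of primitive endoderm and neural ectoderm cells were mixed. The non-overlap counts below stand beside shares of 24.5% (KO lines lower) and 37.7% (KO lines higher) over all genes tested. Of 10 tested mesoderm markers, 7 were lower in both KO lines than in both WT lines, and their summed signal was 9.999 and 9.18 (log2) in KO lines, against 12.38 and 11.69 in WT lines. For 10 tested trophoblast markers, 8 lay below and 2 above, and the summed signal was 16.40 and 15.94 in KO lines, against 18.18 and 18.58 in WT lines. Of 16 fibroblast or feeder markers, 8 were lower in both KO lines and 0 higher, with sums of 16.56 and 16.33 in KO lines, against 17.70 and 17.01 in WT lines. Their median difference was -1.18 for KO 1 minus WT 1, but -0.21 for KO 2 minus WT 2. WT 2 was itself below WT 1, by a median of -1.19. Every tested marker of these 3 lists was well above background in at least 1 KO line. Of 10 tested pluripotency markers, all well above background on all 4 arrays, 9 were higher in both KO lines, with sums of 19.61 and 19.78 in KO lines, against 19.26 and 19.12 in WT lines. Of 12 tested primitive endoderm markers, 5 were higher and 4 lower in both KO lines (median difference 0.20), although the summed signal, which the brightest genes set, was 14.04 and 13.98 in KO lines, against 14.55 and 14.59 in WT lines. Of 9 tested neural ectoderm markers, 3 were higher and 4 lower (median 0.15), with sums of 13.40 and 13.31 in KO lines, against 13.80 and 14.42 in WT lines. The mesoderm, trophoblast and pluripotency lists share genes with the wider pathway list below, among them T and Esrrb. The mesoderm and trophoblast lists also share a gene. The marker counts are therefore not separate from those of the pathway targets. The part of these marker shifts in the Wnt values was not tested.

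The promoters of 3 of the 4 called ligands, Wnt6 and Wnt2, which fell, and Wnt3a, which rose, are shown to set their content of CpG dinucleotides, the sites of DNA methylation, side by side. The 250 bases before each start are from RefSeq (GRCm38.p6), written 5′ to 3′ on the gene's strand, with each CpG in capitals. Wnt6 lies at chr1:74771642-74771891 (plus strand), Wnt2 at chr6:18030446-18030695 (minus strand) and Wnt3a at chr11:59290752-59291001 (minus strand).
Wnt6: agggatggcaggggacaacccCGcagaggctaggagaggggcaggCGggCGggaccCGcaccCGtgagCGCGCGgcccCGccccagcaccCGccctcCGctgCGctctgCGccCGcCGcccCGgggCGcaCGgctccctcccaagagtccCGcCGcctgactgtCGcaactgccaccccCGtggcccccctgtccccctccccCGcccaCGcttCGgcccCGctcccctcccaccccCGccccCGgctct
Wnt2: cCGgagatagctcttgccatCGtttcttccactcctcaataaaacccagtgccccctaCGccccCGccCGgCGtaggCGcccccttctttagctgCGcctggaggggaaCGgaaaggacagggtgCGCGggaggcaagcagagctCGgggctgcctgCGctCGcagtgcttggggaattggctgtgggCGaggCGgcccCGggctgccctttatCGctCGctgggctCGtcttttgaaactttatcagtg
Wnt3a: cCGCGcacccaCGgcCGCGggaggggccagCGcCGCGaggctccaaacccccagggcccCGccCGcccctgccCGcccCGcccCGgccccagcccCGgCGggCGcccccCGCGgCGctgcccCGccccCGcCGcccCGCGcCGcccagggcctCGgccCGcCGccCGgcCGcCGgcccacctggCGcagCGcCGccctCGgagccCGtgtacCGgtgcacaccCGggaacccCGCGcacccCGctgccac
The Wnt6 stretch held 28 CpG, the Wnt2 stretch 20 and the Wnt3a stretch 41, with observed over expected CpG ratios of 0.761, 0.791 and 0.927. Among ligands at least 2-fold lower in both pairs, the same stretch had a ratio of 1.003 in Wnt4 and 0.905 in Wnt7a, but 0.522 in Wnt10b and 0.420 in Wnt16. Over the 47 promoter windows of 300 bases that matched 38 of the 57 members, the median ratio was 0.787, against 0.716 for windows of genes tested on the arrays and 0.384 for all windows.

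The core TCF/LEF motifs CTTTGAT and CTTTGTT, searched on both strands, occurred in 6 of the 47 member windows (12.8%), against 6.70% of 14516 windows of tested genes and 9.33% of all 32851. The 6 genes were Wnt3, Wnt5b, Wnt11, Fzd7, Dkk1 and Tcf7l2. Dkk1, a known target of canonical Wnt signalling, is shown with its match in capitals, at chr19:30549497-30549746 (minus strand), where the match begins 98 bases before the start.
Dkk1: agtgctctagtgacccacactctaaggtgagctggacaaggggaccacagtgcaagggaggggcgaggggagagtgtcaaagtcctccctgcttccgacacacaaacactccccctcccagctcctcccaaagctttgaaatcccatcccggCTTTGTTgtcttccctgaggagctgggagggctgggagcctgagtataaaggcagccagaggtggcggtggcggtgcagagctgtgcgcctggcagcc
A match is a run of letters and not evidence of binding, and the windows of Wnt6, Wnt2 and Wnt3a had none.

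Among the receptors, no Frizzled gene passed the adjusted threshold. Both KO values lay below both WT values for 6 of 10 (24.5% of all genes tested) and above them for 2 (37.7% of all genes). Fzd2 was at 10.99 and 10.59 in KO lines, against 12.39 and 12.50 in WT lines, a difference of -1.65 without overlap (SE 0.19, limma adjusted p = 0.0576). Its second probe gave -1.76, and the gene was called lower under both normexp settings and under the intensity trend (lowest adjusted p 0.0337). Fzd10 was at 11.38 and 10.697 in KO lines, against 12.61 and 12.07 in WT lines (-1.30, adjusted p = 0.156), while its second probe gave -0.72. Fzd2 and Fzd10 were the receptors at least 2-fold lower in both pairs.

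Fzd5, a receptor needed for yolk sac vessels in the mouse embryo, differed in the opposite direction. It was at 8.04 and 8.48 in KO lines, against 6.76 and 6.63 in WT lines, a difference of 1.56 (SE 0.20, limma adjusted p = 0.0687). A second probe gave 1.48, and the gene was called higher (adjusted p = 0.0497) when the probes were averaged. Fzd6, a receptor of planar cell polarity, had -1.47, Fzd1 -1.22, Fzd3 -0.79 and Fzd9 -0.56, each without overlap and each with an adjusted p of 0.159 or more. Fzd4 had -0.35 and overlapped, and Fzd8 had 0.26.

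Fzd7, the Frizzled often linked to the undifferentiated state, depended on its probe. The brightest probe was at 11.02 and 11.30 in KO lines, against 10.85 and 11.32 in WT lines, with overlap (0.08, adjusted p = 0.856). The other probe was at 6.27 and 6.08 in KO lines, against 7.31 and 7.52 in WT lines, a difference of -1.24. Over the 18 members with several usable probes, 16 gave the same sign on all of them, and Fzd7 and Dvl1 did not.

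Of 9 tested secreted inhibitors, none was called, 5 were lower in both KO lines (24.5% of all genes tested), 1 was higher in both (37.7%) and 3 overlapped. Dkk3, a member of the Dickkopf family, was at 4.70 and 5.13 in KO lines, against 7.58 and 6.77 in WT lines (-2.26, limma adjusted p = 0.0875). Sfrp4, a secreted Frizzled-related protein that binds Wnts, was at 6.49 and 7.0 in KO lines, against 8.35 and 9.33 in WT lines (-2.09, adjusted p = 0.114). Frzb, of the same family, was at 2.80 and 1.68 in KO lines, not well above background in either, against 5.21 and 4.35 in WT lines, a gap of at least 2.83-fold on the processed signal (adjusted p = 0.120), and a fitted difference of -0.57 or -0.38 under normexp. All 3 were at least 2-fold lower in both pairs.

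Sfrp1, another Wnt-binding inhibitor, stood on the other side, at 11.68 and 12.24 in KO lines, against 10.10 and 10.69 in WT lines. Both KO lines were above both WT lines, by 1.58 and 1.55 within the pairs (difference 1.57, SE 0.32, limma adjusted p = 0.117), and a second probe gave 1.07. Dkk1, which blocks the Lrp co-receptors, was at 7.66 and 6.79 in KO lines, against 8.05 and 8.19 in WT lines (-0.90, adjusted p = 0.232). Dkk2 had -1.84, with the KO 2 value not well above background. Sfrp2 had -0.55, Wif1, which binds Wnts directly, had -0.45 and Sfrp5 had 0.26, and for these 3 the genotypes overlapped.

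Porcn, the enzyme that attaches the lipid Wnts need for secretion, was at 10.93 and 10.48 in KO lines, against 10.61 and 9.79 in WT lines, with overlap (0.50, limma adjusted p = 0.437). The R-spondins enhance Wnt signalling through Lgr receptors. Rspo1 was at 11.91 and 11.86 in KO lines, against 11.29 and 11.74 in WT lines (0.37, adjusted p = 0.346), and Rspo2 at 4.20 and 3.02 in KO lines, against 5.29 and 4.95 in WT lines (-1.51, adjusted p = 0.188), the KO 2 value being not well above background. Rspo3 was not well above background on both arrays of any group.

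**Figure D3:**
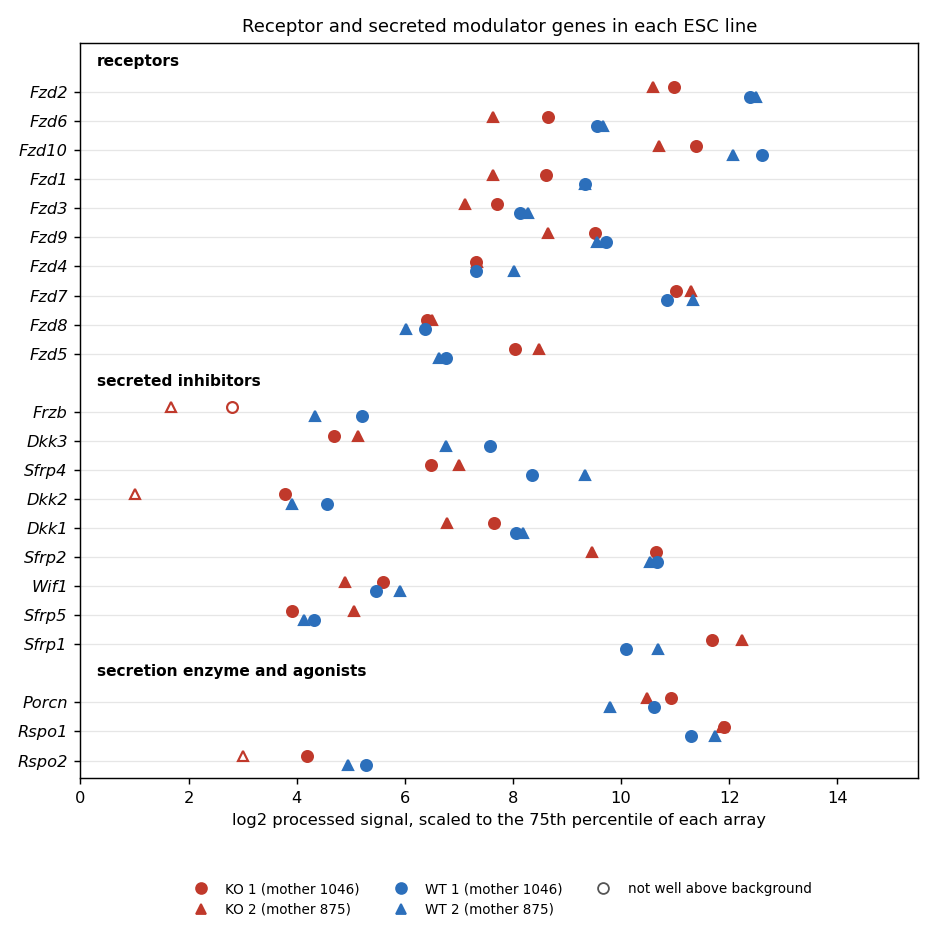
Log2 signal (x axis) of the tested Frizzled receptors, secreted inhibitors, R-spondins and Porcn, 1 row per gene, in the KO lines (red) and the WT lines (blue); circles are the lines of mother 1046, triangles those of mother 875, and open points mark lines in which the probe was not well above background. Fzd5 and Sfrp1 have their KO points above their WT points, by 1.56 and 1.57 on average, whereas Fzd2, Dkk3 and Sfrp4 have them below.

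Transcripts of the cytoplasmic relay differed little, with the largest difference in Dvl2. Protein levels were not measured. The beta-catenin transcript (Ctnnb1) was at 14.72 and 14.73 in KO lines, against 14.67 and 14.73 in WT lines (0.03, SE 0.12, limma adjusted p = 0.904). The KO and WT values overlapped. Transcripts of the beta-catenin destruction complex were likewise close to level. Axin1 was at 10.75 and 10.78 in KO lines, against 10.59 and 10.63 in WT lines (difference 0.15). Gsk3b was at 7.70 and 7.68 in KO lines, against 8.02 and 7.85 in WT lines (difference -0.24). Apc had 0.11. Of the Dishevelled adaptors, which pass the signal on from Frizzled, Dvl2 was at 10.99 and 11.08 in KO lines, against 10.46 and 10.42 in WT lines (0.60, adjusted p = 0.118), and Dvl1 and Dvl3 had -0.04 and -0.11. The SE of these 7 differences was 0.12 to 0.13, and the signs of Ctnnb1, Dvl1, Dvl3 and Gsk3b turned under some other scaling of the arrays.

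Among the TCF/LEF factors, Lef1 was the one that stood apart. Lef1 is both a mediator and a target of canonical signalling, and it was at 8.19 and 8.19 in KO lines, against 10.39 and 9.79 in WT lines. The KO lines were 3.72-fold lower without overlap, short of the adjusted threshold (difference -1.90, SE 0.25, limma adjusted p = 0.0698), which it passed under normexp with 75th-percentile scaling (0.0418). Tcf7l2 was at 10.73 and 10.04 in KO lines, against 10.93 and 11.22 in WT lines (-0.69, adjusted p = 0.265). Tcf7 was at 10.65 and 10.51 in KO lines, against 11.04 and 10.67 in WT lines (-0.27). Tcf7l1, the repressor of pluripotency genes in ESCs, was at 13.98 and 14.19 in KO lines, against 13.82 and 14.06 in WT lines, with overlap (0.15), and its sign turned under quantile scaling.

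All 4 feedback targets, genes that canonical signalling switches on and that tune it in return, were lower in both KO lines than in both WT lines, and none was called. The share lower in this way was 24.5% over all genes tested, and these 4 were chosen with the differences known. Nkd1, which binds Dishevelled and damps the signal, was at 7.76 and 7.43 in KO lines, against 8.84 and 8.81 in WT lines (-1.23, SE 0.17, limma adjusted p = 0.0737). Lgr5, the R-spondin receptor that marks intestinal stem cells, was at 4.91 and 2.45 in KO lines, against 6.0 and 5.98 in WT lines (-2.31, SE 0.91, adjusted p = 0.238). The KO lines differed widely here, and KO 2 was not well above background. Axin2, the most widely used readout of beta-catenin activity, was at 8.17 and 7.58 in KO lines, against 9.39 and 8.39 in WT lines (-1.02, adjusted p = 0.266). Its groups did not overlap, but KO 1 was only a little below WT 2. Nkd2 was at 8.48 and 7.46 in KO lines, against 8.75 and 9.25 in WT lines (-1.03, adjusted p = 0.259).

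**Figure D4:**
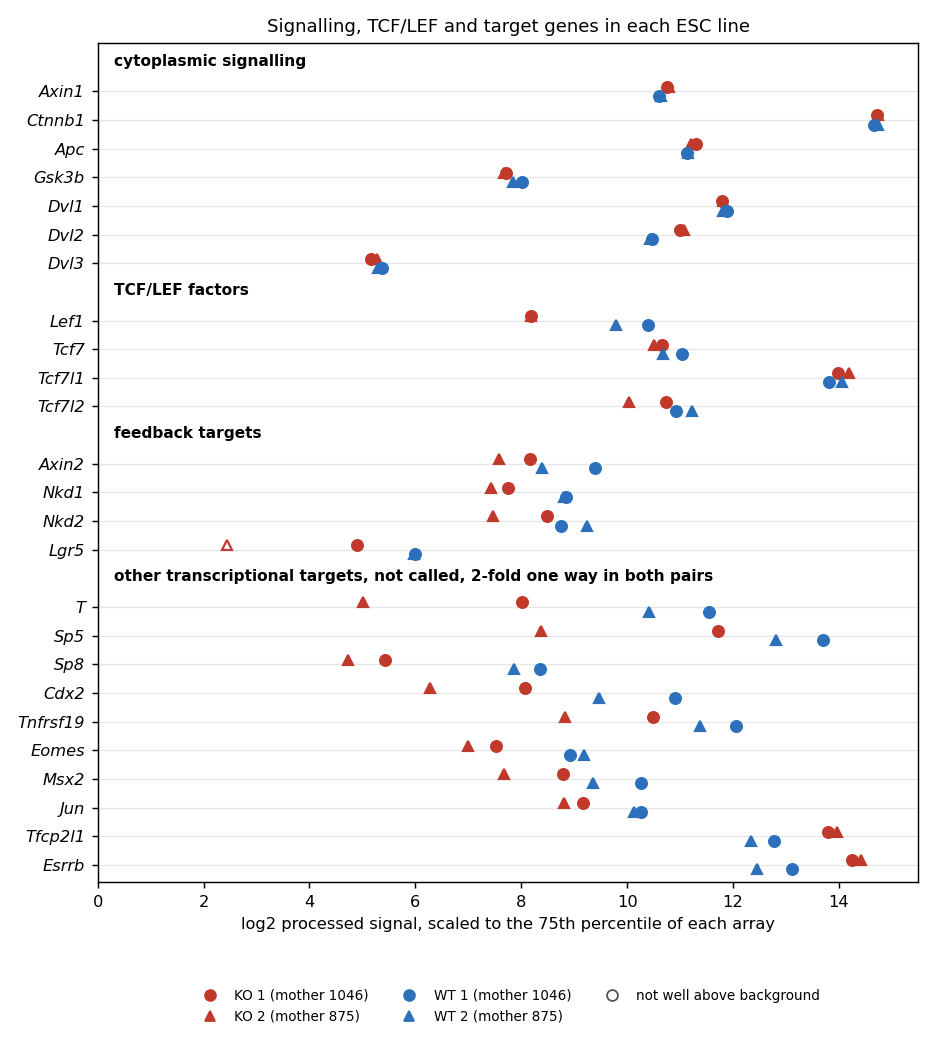
Log2 signal (x axis) of the cytoplasmic genes, TCF/LEF factors, feedback targets and the transcriptional targets not called but at least 2-fold one way in both pairs, 1 row per gene, in the KO lines (red) and the WT lines (blue); circles are the lines of mother 1046, triangles those of mother 875, and the open point for Lgr5 in KO 2 marks a probe not well above background. Ctnnb1 lies between 14.67 and 14.73 in all 4 lines, while Lef1 lies at 8.19 in both KO lines and at 10.39 and 9.79 in WT lines.

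A wider list of 103 pathway genes, none of them among the 57, was read in the same fit. Of the 92 tested, 1 transcriptional target was called lower by limma and none higher, against 1.67% and 0.176% of all genes tested. An unadjusted limma p under 0.05 was reached by 19 in the lower direction and 7 in the higher. Of all 21639 genes, 5099 reached it in either direction, so little is read from these counts. The median difference of the wider list was -0.03. By list, the medians were -0.26 for 21 genes on the ligand and receptor side, 0.15 for 30 genes of cytoplasm and nucleus, -0.12 for 12 genes of planar cell polarity and -0.22 for 29 transcriptional targets.

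In the first 3 of these lists, which had no call, the genes of smallest p were as follows. On the receptor side, the Dickkopf co-receptors Kremen1 and Kremen2 had -0.97 and -0.85, and Rnf43, a ubiquitin ligase that removes Frizzled from the surface, had -1.07. In the nucleus, Bcl9l, a beta-catenin co-activator, had -1.17, and Tle5, of the Groucho family, had 1.09. Cxxc4, an inhibitor that binds Dishevelled, was not well above background in KO lines and was at least 2.01-fold lower there on the processed signal. Its fitted difference under normexp was -0.43 or -0.26. Of the polarity genes, Prickle1 had -2.36, Celsr3 0.44 and Daam2, not well above background in KO 2, had -1.37. The limma adjusted p of these 9 genes ran between 0.0732 and 0.254.

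Among the transcriptional targets, 9 of 29 were at least 2-fold lower in both pairs (6.94% of all genes tested). Another 2, Esrrb and Tfcp2l1, pluripotency factors that Tcf7l1 represses, were at least 2-fold higher (1.56% of all genes). These pluripotency genes and the following trio are named after their values were seen. T (brachyury), the primitive streak factor and direct Wnt target, was at 8.01 and 5.01 in KO lines, against 11.54 and 10.42 in WT lines (-4.47, SE 1.18, limma adjusted p = 0.158). Sp5, a direct target in ESCs and embryos, was at 11.71 and 8.36 in KO lines, against 13.70 and 12.81 in WT lines (-3.21, SE 1.28, adjusted p = 0.240). Sp8, its relative, was at 5.44 and 4.73 in KO lines, against 8.36 and 7.87 in WT lines (-3.03, SE 0.34, adjusted p = 0.0540), and was called lower under 4 of the other settings tried. In all 3 the genotypes were separated, and for T and Sp5 the KO lines lay far apart from each other, KO 2 being the lower. Wls, the carrier that takes Wnts to the cell surface, also named after its values were seen, was at 10.59 and 9.23 in KO lines, against 12.56 and 11.70 in WT lines (-2.22, adjusted p = 0.162).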

How the data were processed

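Per the file headers, Agilent Feature Extraction 10.7.3.1 quantified the spots, and its processed intensity carries a background subtraction and a spatial detrend but no scaling between arrays. Median spot and local background intensity were left raw by it, per the file headers. The labels name GeneSpring GX11 as the software of the authors. The deposited series table holds log2 values whose scale the sources used here do not state: each column tracked log2 of its array's processed signal (r 0.999902 to 0.999988) with a median of 6.55 and shared quantiles, so it is quantile-normalized and not centred per gene. The annotation in the files refers to mm9, so positions are given only for RefSeq promoters of GRCm38.p6.

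From these files, log2 processed signal minus each array's 75th percentile was computed and recentred. Control spots and outlier spots were left out and repeat spots averaged. A further 233 probes, with only outlier spots on at least 1 array, were dropped. Of 41174 probes, 26690 matched 1 symbol through RefSeq accessions, 0 several and 14484 none. Probes had to be well above background on the 2 arrays of 1 genotype or the other, and a gene was represented by its brightest such probe (21639 tested, 14375 with a symbol). Groups came from the titles. Genotype was the single term of the model (lmFit and eBayes of limma 3.58.1, R 4.3.3), with Benjamini-Hochberg adjustment over all tested at 0.05. The labels tie replicate numbers to a shared mother, so a second fit took the mother as a block; mother differences correlated at 0.19 across genes. All 4 arrays shared 1 slide and scan. "At least N-fold" sets a group below background at its own signal or the lowest above-background signal of its arrays (log2 3.24 to 3.58), whichever is higher. In 20 simulated sets of 21639 genes, 200 genes were changed per set, and the spread was drawn from the limma prior. Of 1340 changes of log2 1, 1 was called (0.0746%), and with the wrong sign. Changes of log2 2 were recovered in 5.37% and of 4 in 70.2%, all with the right sign, and 4.28% of calls were false.

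The members and gene lists were chosen with earlier results of these data known. Members called, or at least 2-fold one way in both pairs, are given line by line, then up to 3 per role with the smallest p. Other pathway genes are named if called, else the 3 of smallest p per list. The called gene of the wider list is counted there but is not otherwise reported here. Other scalings, background corrections, filters, probe rules and left-out lines were tried.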

Additional observations from a re-analysis of the deposited data

Results flagged for a closer look

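For 5 members the log2 difference KO minus WT had opposite signs in the pairs of the 2 mothers, and the difference between pairs was not tested. Fzd4 had 0.0032 for KO 1 minus WT 1 and -0.69 for KO 2 minus WT 2. Fzd7 had 0.18 in the first pair and -0.024 in the second. Sfrp5 had -0.41 in the first pair and 0.92 in the second. Wif1 had 0.13 in the first pair and -1.03 in the second. Wnt1 had -0.027 in the first pair and 0.63 in the second, near background throughout.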

How the results depend on the processing

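Most values kept their direction and side of the threshold: of the 53 members under 14 other settings, 673 values did, 23 lost the call, 15 gained one and 22 turned sign, in 11 members. The 23 losses all fell on the 4 called members, since the other 49 had no call to lose. The pooled count therefore does not show that the calls were stable. For 14 other named genes, added after seeing the data, 189 values kept both, 4 (all of Sp8) gained a call and 0 turned sign. With the mother as a block, 0 of all genes were called, against 399 without it (unadjusted limma p under 0.05 for 2736 genes in the lower direction and 2278 in the higher), so 0 members fell and 0 rose (22 and 4 unadjusted). With probes required above background on all 4 arrays, 0 genes and 0 members were called (unadjusted limma p under 0.05 for 2184 and 2444 genes, and for 15 and 4 members, in the lower and higher direction). Leaving out 1 line gave 0 to 743 called genes, 0 to 8 members lower and 0 to 1 higher. The counts of 743 and 8 came without KO 1, and the counts of 0 without KO 2, WT 1 or WT 2. Normexp with 75th-percentile scaling called 5 members lower, an intensity trend with a robust prior called 6, and averaging probes called 2 higher. The ligand median was -1.08 and -0.91 with normexp (75th percentile, quantile), -1.57 with all 4 arrays above background, and -2.22 to -1.56 leaving out 1 line. The feedback median was -0.77 with normexp and quantile scaling and -1.47 to -0.89 leaving out 1 line. Leaving out 1 line gave receptor medians of -1.04 to -0.42, inhibitor medians of -1.33 to -0.46, and medians of -0.08 to -0.01 for cytoplasmic genes with TCF/LEF factors, which stood at -0.04 and turned to 0.12 under median centring. Median centring put the median of all genes at 0.26, against 0.10.

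Signs also turned as follows, and the cause was not tested. Ctnnb1 had -0.13 under quantile scaling, -0.13 under normexp with quantile scaling, -0.14 in the deposited table and -0.0018 to 0.055 leaving out 1 line. Dvl3 had 0.14, 0.050 and 0.12 under those 3 scalings and 0.063 under median centring, and Tcf7l1 had -0.0037, -0.021 and -0.0029. Dvl1 had 0.12 under median centring and Gsk3b 0.0096 under normexp with quantile scaling. Normexp with 75th-percentile scaling gave -0.091 for Wnt1 and -0.077 for Sfrp5. Fzd7 had -0.58 with probes averaged, -0.062 without KO 2 and -0.16 to 0.31 over the lines left out. Leaving out 1 line gave -0.32 to 0.83 for Sfrp5, -1.70 to 0.13 for Wnt8a and -1.14 to 0.038 for Sfrp2, each turning without KO 2, and -0.70 to 0.011 for Fzd4, turning without WT 2. Normexp used the median spot intensity in place of the mean. Dim probes, such as those of Wnt2, Wnt10b, Wnt16 and Frzb, have only a bound in KO lines.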
